A study of Mus musculus with 4 samples.

Results

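The comparison set the non-responder library taken after PD-1 blockade against the non-responder library taken before it. These are 2 of the 4 libraries of the series, chosen by their response and time labels and by no measured value, and each is a single library with no replicate. The other 2 libraries, from a responder before and a responder after therapy, are used for the common scaling and as values beside the non-responder ones. In every group the RNA came from CD8+ T cells with high CD11a that were flow-sorted from the blood of patients who received an anti-PD-1 antibody every 3 weeks, with 4 doses as a cycle. The tumour type is not given in the labels, nor is any tie between the before and the after library of one response class. A difference between times and a difference between patients therefore cannot be told apart here. The treatment label places all samples after a cycle of antibody while the group label places 1 non-responder library before therapy; the grouping here is by the latter. The sample name of the library from before therapy carries a PD-1-positive tag that the later library lacks, and whether the sort gates differed is not stated. The responder library from before therapy carries such a tag too. The organism label names mouse, but the files hold human genes on hg38.

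CD8+ T cells kill infected and transformed cells by releasing perforin and granzymes from granules, and memory and effector subsets of them circulate in blood. CD11a, encoded by ITGAL, pairs with the beta 2 integrin chain to form LFA-1 and is raised on T cells that have met antigen. PD-1 is a receptor that dampens signals from the T cell receptor, and antibodies that block it can release T cells from this restraint, which some patients' tumours respond to and others do not.

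The 4 libraries held between 65500644 and 129773591 counts, with 65500644 in the non-responder library before and 115446087 in the one after therapy, and 26352 and 29459 genes had a count in these. Levels below are CPM, the count relative to the library size after TMM normalisation over the 4 libraries, and ratios are log2 of after over before. Intervals are at 95% and cover counting error only, so they carry neither the spread between patients nor that between library preparations, and no p-value is given. A gene is called higher or lower where the libraries differ at least 2-fold and the higher one has at least 5 CPM. Where a library has no count, the bound printed takes 3 counts as its floor there, or 0.046 CPM before and 0.0268 CPM after therapy. With 1 ng of input RNA, a transcript that was never captured also leaves a count of 0. Mitochondrial genes took 5.43% of counts before and 4.75% after therapy, and MALAT1 4.18% and 2.19%.

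The sorted cells' own markers differed little between the libraries. None of the 10 T cell markers was at least 2-fold apart, and their median log2 ratio was -0.41. CD8A (ENSG00000153563, hg38 chromosome 2, 86784610 to 86808396), which encodes the alpha chain of CD8, stood at 865 CPM before and 946 CPM after therapy, and CD8B, the beta chain, at 638 and 598 CPM. The ratios of the CD8 chains were 0.13 and -0.09, the closest to 0 of the list beside CD3E. Of the chains that signal for the T cell receptor, CD3E stood at 556 and 597 CPM, CD3D at 619 and 404 CPM, CD3G at 296 and 150 CPM, and CD247 at 266 and 168 CPM. CD3G had the lowest ratio of the list, -0.98 (interval -1.01 to -0.95). ITGAL, the CD11a gene of the sort, stood at 679 CPM before and 516 CPM after therapy. The adhesion and scavenger-like receptors CD2, CD5 and CD6 had ratios of -0.20, -0.42 and -0.51. PDCD1 (ENSG00000188389, chromosome 2, 241849881 to 241858908), the PD-1 gene, was low in both libraries, at 4.98 CPM before and 7.88 CPM after therapy, against 31.4 and 28.7 CPM in the responder libraries. Its ratio of 0.66 (interval 0.48 to 0.85) is under 2-fold, and the non-responder library tagged PD-1-positive was the lower one of its pair.

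The filter of 5 CPM left 12641 genes in the non-responder pair, of which 1976 (15.6%) were at least 2-fold higher after therapy, 1043 (8.25%) at least 2-fold lower, and 9622 less than 2-fold apart. The median over all 12641 genes was 0.07. Large differences were mostly upward: 781 genes were at least 4-fold higher and 186 at least 4-fold lower, and at 16-fold the counts were 339 and 21. A further asymmetry lay in genes with no count on one side, since 111 genes with at least 5 CPM after therapy had none before, while 6 had none after. The 339 genes at least 16-fold higher summed to 408 CPM before and 21006 CPM after therapy. In the responder libraries 12265 genes passed the same filter, 1042 (8.5%) higher and 575 (4.69%) lower after therapy. When the CD3 and CD8 chains are set equal instead of using TMM, every non-responder ratio moves up by 0.29, and the split becomes 3134 higher and 613 lower, so that 83.6% of calls are upward against 65.5%. With the chains set equal the median over the same 12641 genes is 0.37. List medians given under that scaling are to be read against it. Shares of members called below are to be read against 15.6% and 8.25%. The 742 genes of 50 lists described here include 645 that passed the filter in the non-responder pair, and list medians are over those members only. A gene under 5 CPM in one library passes only where the other library is higher, so the filter itself fixes the direction of such genes.

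**Figure D1:**
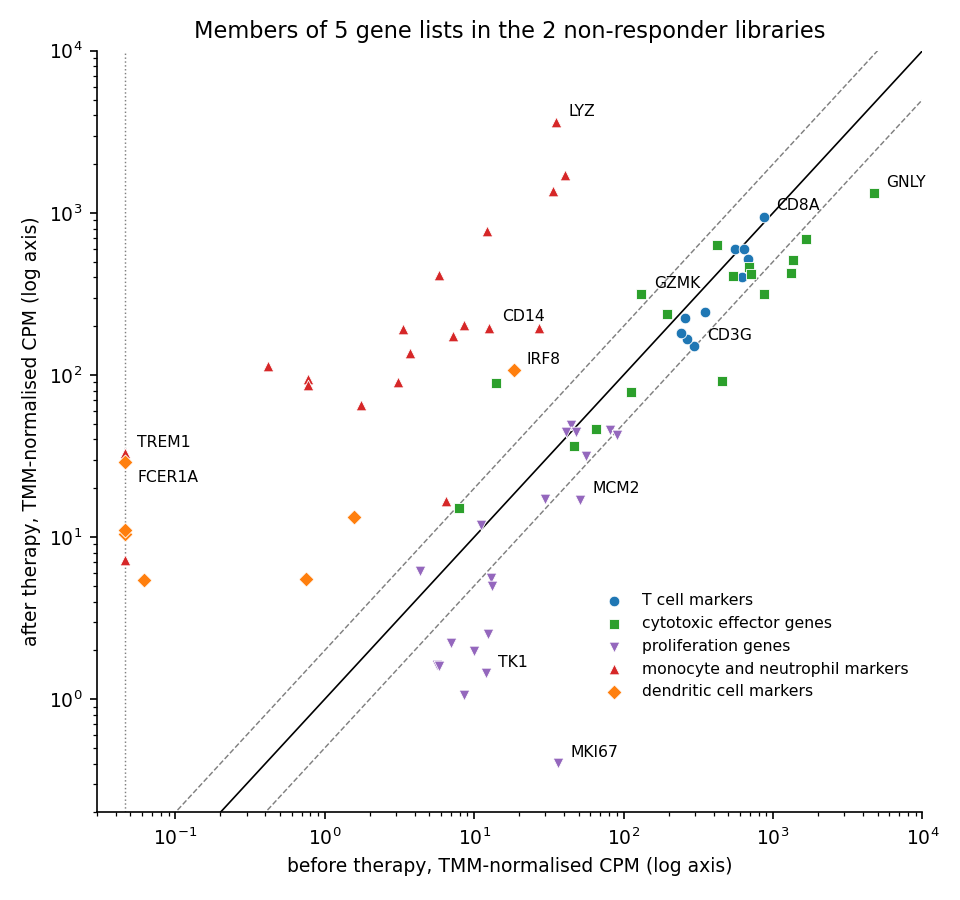
Level before therapy (x axis) against level after therapy (y axis) in the 2 non-responder libraries, both in TMM-normalised CPM on log axes, for members of 5 gene lists that passed 5 CPM. The solid line marks equal levels, the dashed lines 2-fold, and points on the dotted line have no count before therapy and are drawn at the floor of 0.046 CPM; 1 of the 20 monocyte and neutrophil markers is not drawn. T cell markers lie between the dashed lines, monocyte, neutrophil and dendritic cell markers above them, and most proliferation genes on or below the lower one.

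Genes of myeloid cells, which a CD8+ T cell sort should leave out, were higher after therapy. All 20 monocyte and neutrophil markers passed the filter, and 19 were at least 2-fold higher after therapy (95% against 15.6% of all genes), with a median log2 ratio of 5.38. The remaining 1 was under 2-fold apart, with a ratio below 0. The summed level of the 20 markers went from 220 CPM before to 9520 CPM after therapy, and from 162 to 1988 CPM in the responder libraries. LYZ (ENSG00000090382, chromosome 12, 69348341 to 69354234), the lysozyme of monocytes and granulocytes, stood at 35.1 CPM before and 3631 CPM after therapy, 104-fold higher (log2 ratio 6.69, interval 6.64 to 6.75). The counting interval is narrow beside the size of the ratio. The calcium-binding alarmins S100A8 and S100A9 stood at 33.6 and 40.4 CPM before and at 1368 and 1722 CPM after therapy. FCN1, a lectin secreted by monocytes, went from 12.2 to 768 CPM, VCAN from 5.8 to 415 CPM, and CD14, the monocyte co-receptor for lipopolysaccharide, from 12.6 to 196 CPM. The receptor of colony-stimulating factor 1, CSF1R, was 37.1-fold higher and the granulocyte receptor CSF3R 57.5-fold higher. TREM1, an activating receptor of myeloid cells, had no count before therapy and 32.9 CPM after it, at least 714-fold higher. CEBPA, a transcription factor of the myeloid lineage, had the smallest increase of the 19, from 6.44 to 16.7 CPM. The myeloid signal was also present, at lower levels, in the responder library after therapy, where LYZ stood at 791 CPM and CD14 at 54.4 CPM.

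Inflammatory genes of myeloid cells went the same way. Of 16 listed genes 9 passed the filter, with a median of 4.74. Of these 9, 7 were higher after therapy (77.8% against 15.6% of all genes). A member under 5 CPM before therapy could pass only by being higher after it, so this count and median carry that selection. Summed over all 16 genes, passing or not, the level was 147 CPM before and 567 CPM after therapy. IL1B, the cytokine interleukin 1 beta, had no count before and 13.2 CPM after therapy, at least 287-fold higher, and its antagonist IL1RN was at least 284-fold higher. NLRP3, the sensor of an inflammasome that matures interleukin 1 beta, went from 1.58 to 42.5 CPM. THBS1, thrombospondin 1, went from 2.76 to 114 CPM, the urokinase receptor PLAUR from 7.9 to 151 CPM, and the neutrophil chemoattractant CXCL8 from 2.44 to 25.1 CPM. These 3 were flat in the responder pair, where THBS1 stood at 10.8 and 8.3 CPM, PLAUR at 9.45 and 12.3 CPM, and CXCL8 at 3.98 and 4.08 CPM. The list as a whole was not flat there: 7 genes passed, with 3 higher, 2 lower and 2 under 2-fold apart. OSM and SOD2 were under 2-fold in the non-responder, with ratios of 0.53 and 0.65. IL1A, IL6, CXCL1, CXCL2, CXCL3, CCL2 and TNFAIP6 did not reach 5 CPM.

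Most passing markers of dendritic cells, platelets and CD4+ T cells were higher in the same library. Of the 12 dendritic cell markers 7 passed the filter and each was higher after therapy, with a median of 6.34, or 6.34 with zero counts set at the floor. Members near 0 before therapy could pass only by being higher after it, so this count and median carry that selection. Summed over all 12 markers, passing or not, the level was 24.4 CPM before and 188 CPM after therapy. FCER1A, the alpha chain of the high-affinity IgE receptor, had no count before and 29.2 CPM after therapy, at least 634-fold higher. CLEC10A was at least 228-fold higher, FLT3 at least 241-fold, and CD1C, a lipid-presenting molecule, went from 1.58 to 13.3 CPM. LILRA4, found on plasmacytoid dendritic cells, stood at 0.0613 CPM before and 5.41 CPM after therapy (log2 ratio 6.34, interval 5.10 to 8.34). CLEC9A and XCR1, which define cross-presenting dendritic cells, stayed under 5 CPM in both libraries. In the responder pair only IRF8 of this list passed the filter, at 13.3 and 16.6 CPM, against 18.5 and 107 CPM in the non-responder. Below the filter, FCER1A was also higher there, at 0.324 and 2.92 CPM (log2 ratio 3.15, interval 2.61 to 3.79). The 12 markers summed to 17.8 and 24.9 CPM in the responder libraries.

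Antigen presentation genes shared this direction. Of 8 MHC class II genes 4 were at least 2-fold higher and 0 lower, with a median of 1.00. HLA-DRA, the alpha chain of HLA-DR, stood at 175 CPM before and 733 CPM after therapy, and HLA-DMB, which helps load peptides, at 25.4 and 122 CPM. HLA-DPB1 was the lowest of the list, with a ratio of -0.27. The responder libraries had HLA-DRA at 176 and 240 CPM, and none of the 8 was called. Activated human T cells also express MHC class II, so these genes are not specific to myeloid cells.

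CD4 (ENSG00000010610, chromosome 12, 6786858 to 6820808), the co-receptor of helper T cells that monocytes also carry, went from 4.81 to 94.7 CPM, 19.7-fold higher. Helper cell genes outside the myeloid lineage differed less: CD40LG, the ligand with which helper cells activate B cells, went from 2.55 to 13.7 CPM and ZBTB7B, the factor that sets the CD4 lineage, from 1.78 to 5.45 CPM. CCR4 was under 2-fold apart, at 12.7 and 16.4 CPM, so that 3 of the 4 passing genes of this list of 6 were called. FOXP3 and IL2RA of regulatory T cells did not reach 5 CPM.

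Of 13 platelet markers 10 passed, 6 of them higher and 0 lower, and the summed level was 139 CPM before and 277 CPM after therapy, against 118 and 41.5 CPM in the responder pair. ITGA2B, the alpha chain of the platelet fibrinogen receptor, was 671-fold higher on only 2 counts before therapy (log2 ratio 9.15, interval 7.54 to 12.44), and its partner ITGB3 was at least 381-fold higher. PPBP, an abundant platelet chemokine, stood at 29.1 and 61.4 CPM, whereas GP1BB went from 9.23 to 5.71 CPM. Among NK cell markers 4 of 11 were higher and 1 lower. The 2 adaptor genes among the higher ones, FCER1G at 35.9 and 276 CPM and TYROBP at 56.3 and 273 CPM, are shared with myeloid cells, and KIT had no count before therapy and 6.04 CPM after it. NCR1, the natural cytotoxicity receptor NKp46, was lower, at 14.2 and 4.9 CPM. Of 12 B cell and plasma cell markers 4 passed and BLK alone was called, from 2.38 to 9.93 CPM. The hemoglobin gene HBB went from 15.5 to 3.71 CPM, and of 12 epithelial and matrix genes COL1A1 alone passed, at 6.87 and 1.59 CPM. In the responder pair 9 of these 12 passed, all 9 lower after therapy. The list summed to 352 CPM before and 3.42 CPM after therapy there. In bulk RNA, more cells of a type and more RNA per cell cannot be told apart. How far RNA of myeloid cells enters the other gene groups below was not tested, and the summed monocyte and neutrophil levels of 220 and 9520 CPM stand beside all of them.

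**Figure D2:**
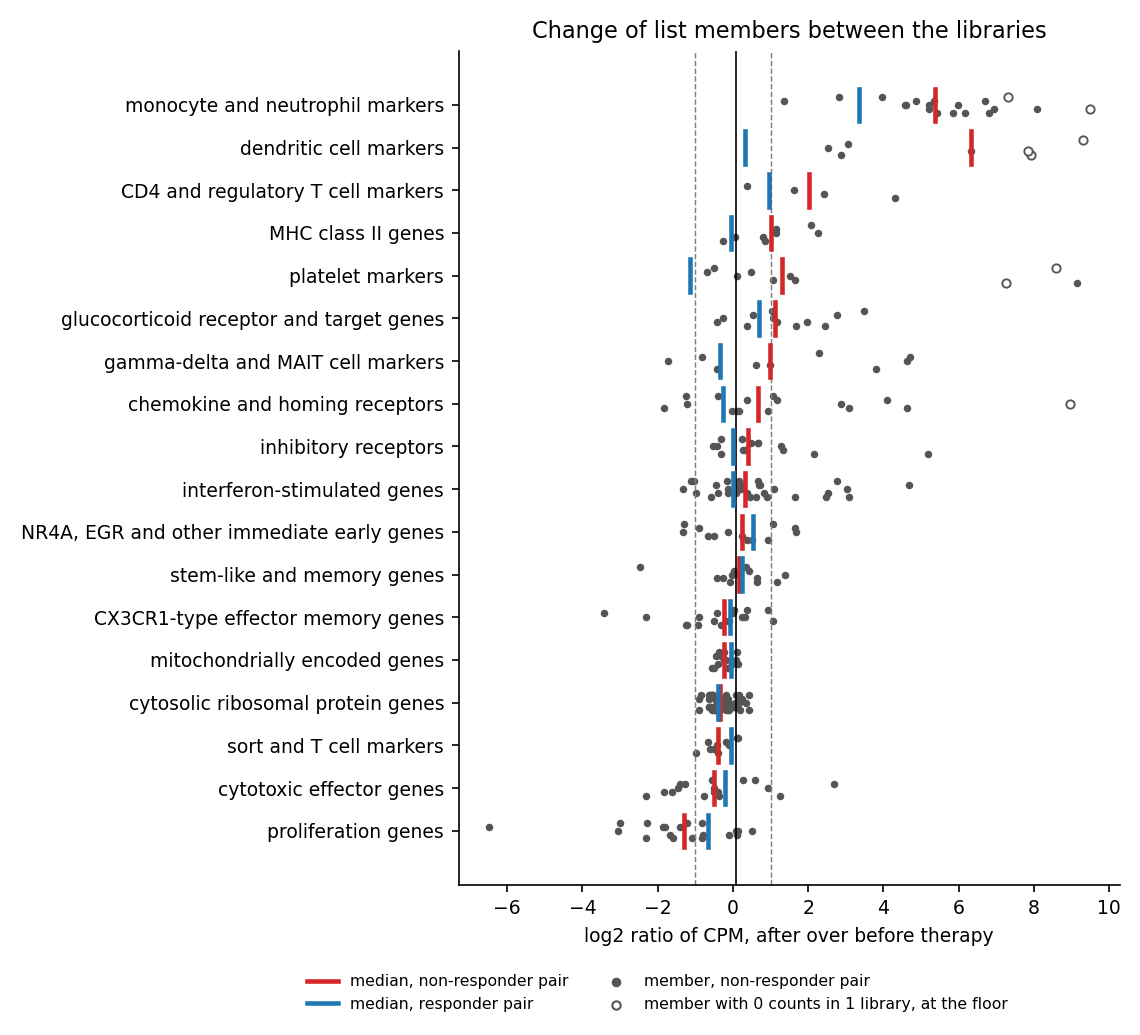
Log2 ratio of CPM, after over before therapy (x axis), for members of 18 gene lists (y axis) that passed 5 CPM in the non-responder pair; open points are members with no count in 1 library, drawn at their bound, and 1 member of the first list is not drawn. Red bars are list medians in the non-responder pair and blue bars those in the responder pair, the black line is the median of all genes in the non-responder pair (0.07) and dashed lines mark 2-fold. Medians of the non-responder pair run from 6.34 for dendritic cell markers to -1.31 for proliferation genes.

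Of the 17 cytotoxic effector genes, all of which passed the filter, 6 were at least 2-fold lower after therapy (35.3% against 8.25% of all genes), 2 were higher and 9 were under 2-fold apart, with a median of -0.51. The summed level of the 17 genes was 13325 CPM before and 6108 CPM after therapy, against 13158 and 10271 CPM in the responder libraries. GNLY (ENSG00000115523, chromosome 2, 85685175 to 85698854), the membrane-damaging granulysin, stood at 4725 CPM before and 1321 CPM after therapy, 3.58-fold lower (log2 ratio -1.84, interval -1.85 to -1.83). The granzymes GZMB and GZMH stood at 875 and 1316 CPM before and at 316 and 427 CPM after therapy. FGFBP2, a secreted product of cytotoxic lymphocytes, went from 452 to 91.3 CPM, the granule membrane protein NKG7 from 1361 to 514 CPM and the protease CTSW from 1656 to 689 CPM. The pore-forming PRF1 was under 2-fold apart, at 685 and 465 CPM. GZMK, a granzyme of less differentiated memory cells, went the other way, from 132 to 316 CPM, and so did TNFSF10, the death ligand TRAIL, from 14.1 to 89.8 CPM. With CD3 and CD8 chains set equal, 5 of the 17 were lower and 3 higher, with a median of -0.21 against 0.37 over all genes. In the responder pair 1 of these genes, FGFBP2, was at least 2-fold lower and 0 were higher.

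Genes of CX3CR1-type effector memory cells, which patrol the blood, gave 4 lower and 1 higher of 18. B3GAT1, the enzyme that makes the CD57 epitope of terminally differentiated lymphocytes, went from 8.56 to 0.795 CPM, 10.8-fold lower (log2 ratio -3.42, interval -3.77 to -3.10). S1PR5 stood at 240 and 103 CPM and C1orf21 at 105 and 44.4 CPM. CX3CR1 itself, also expressed by monocytes, was higher, at 78.2 and 162 CPM, while in the responder pair it stood at 679 and 379 CPM. The list's median was -0.23 and turned to 0.06 with the CD3 and CD8 chains set equal, where that of all genes was 0.37. Among killer lectin-like receptors KLRC3 alone was called, at 43.7 and 15.8 CPM, and KLRK1, which encodes the activating receptor NKG2D, stood at 624 and 652 CPM. Reads of KLRC3 may be shared with the near-identical members of its cluster.

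Genes of unconventional and type 17 T cells separated in both directions. CCR6, a chemokine receptor of type 17 cells and of mucosal-associated invariant T (MAIT) cells, stood at 0.552 CPM before and 13.7 CPM after therapy, 24.8-fold higher (log2 ratio 4.62, interval 4.16 to 5.15). IL23R, the receptor for interleukin 23, went from 0.429 to 6.05 CPM and SLC4A10, a transporter that marks MAIT cells, from 3.4 to 16.5 CPM. KLRB1, which encodes CD161 on the same cells, lay just under the 2-fold threshold, at 50.6 and 101 CPM. TRDC, the constant region of the gamma-delta T cell receptor, was lower, at 83.2 and 25.0 CPM, and TRGC2 stood at 250 and 142 CPM. ZBTB16, a factor of innate-like T cells, had a ratio of -0.44. The responder pair went the other way for IL23R, at 5.52 and 1.33 CPM, and for SLC4A10, at 20.2 and 7.53 CPM, while CCR6 stood at 7.76 and 6.55 CPM there.

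Transcription factors of T cell fate were mostly within 2-fold. Among 14 effector factors IKZF2, which encodes Helios, went from 17.4 to 4.2 CPM and ZNF683, which encodes the tissue-residency factor Hobit, from 163 to 59.4 CPM. EOMES, the T-box factor of memory and exhausted cells, was the only one called higher, from 95.2 to 220 CPM. RUNX3, which maintains the CD8 lineage, stood at 705 and 353 CPM, at the edge of 2-fold. Of 13 stem-like and memory genes IL7R, the receptor of the survival cytokine interleukin 7, was higher, at 145 and 326 CPM, as was BCL6, at 22.9 and 60.3 CPM, and ID3 was lower, at 8.36 and 1.49 CPM. TCF7 and LEF1, the factors of naive and stem-like cells, had ratios of 0.63 and 0.43, both under 2-fold. ID3, BCL6 and ZNF683 went the same way in the responder pair, with ratios of -3.04, 1.65 and -2.40.

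Of 16 inhibitory receptors 14 passed, with 4 higher and 0 lower. C10orf54, which encodes the checkpoint protein VISTA found on myeloid and T cells, stood at 209 CPM before and 509 CPM after therapy, and LAIR1, a collagen receptor, at 42.8 and 109 CPM. CD101 went from 4.34 to 19.2 CPM and CD200R1 from 0.368 to 13.5 CPM, 36.6-fold higher (log2 ratio 5.17, interval 4.62 to 5.84). The receptors that define exhausted T cells differed less. TIGIT stood at 60.5 and 41.9 CPM, LAG3 at 87.1 and 70.2 CPM, and CD244 at 105 and 85.1 CPM. Of the 4 receptors called, CD200R1 alone was also called in the responder pair, at 11.8 and 26.9 CPM.

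Of 9 passing genes among 13 exhaustion-associated genes 3 were higher and 1 lower. CXCR6 went from 2.59 to 22.1 CPM, SNX9 from 11.8 to 42.1 CPM, and ENTPD1, the ectoenzyme CD39, from 10.6 to 28.0 CPM. CD38, another ectoenzyme, was lower, at 21 and 9.42 CPM, and TOX, the nuclear factor that programs exhaustion, had a ratio of -0.59. Costimulatory receptors of the tumour necrosis factor family split off: TNFRSF4, which encodes OX40, went from 10.1 to 1.19 CPM and TNFRSF18, which encodes GITR, from 6.3 to 1.32 CPM, while CD28, the main costimulatory receptor of naive and early memory cells, went from 18.2 to 55.6 CPM. The other 9 of the 12 costimulatory receptors were under 2-fold. Both TNFRSF4 and TNFRSF18 were also lower in the responder pair, with ratios of -2.21 and -2.11.

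Only 4 of 9 checkpoint ligand genes passed, and all 4 were called. CD274, which encodes PD-L1, went from 15.5 to 4.32 CPM, 3.58-fold lower, and TNFSF9, the ligand of 4-1BB, from 12.8 to 5.91 CPM. CD86, the CD28 ligand of antigen-presenting cells, went from 0.291 to 54.2 CPM, 186-fold higher, and LGALS9 from 7.02 to 25.1 CPM. CD274 in the responder pair was higher after therapy, at 9.1 and 19.3 CPM.

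**Figure D3:**
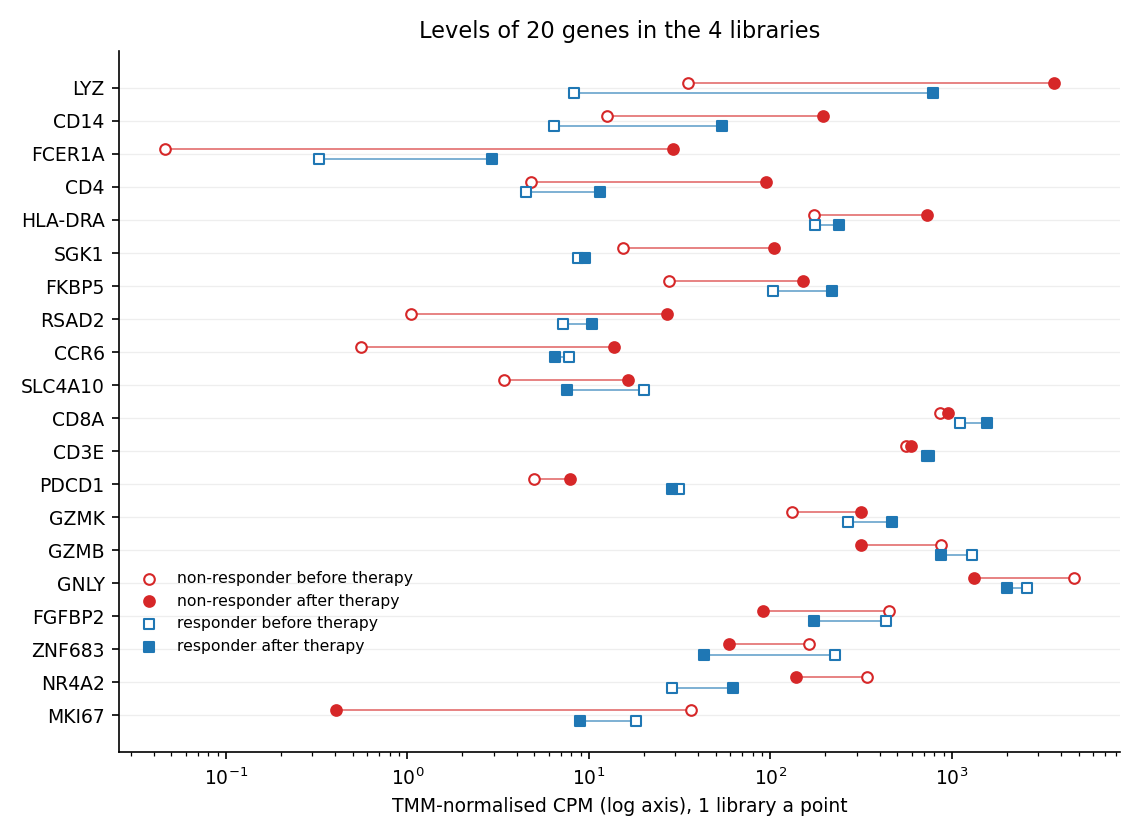
TMM-normalised CPM (x axis, log scale) of 20 genes (y axis) in the 4 libraries, 1 library a point, with open points for before and filled points for after therapy, circles for the non-responder and squares for the responder libraries. Lines join the libraries of one response class and do not mean that they came from 1 patient; FCER1A, without a count in the open red circle, is drawn there at 0.046 CPM. SLC4A10 runs in opposite directions in the 2 classes, and LYZ and CD14 in the same direction.

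Genes of T cell receptor signalling were mostly steady, and immediate early genes split. Of 28 proximal signalling genes 4 were higher and 1 lower, with a median of 0.13. The phospholipase PLCG1 stood at 48.3 CPM before and 112 CPM after therapy, whereas the adaptor SH2D2A stood at 73.5 and 33.5 CPM. ZAP70, the kinase that binds the receptor's phosphorylated tails, had a ratio of -0.40, and the adaptor LAT of -0.68. FOS, an AP-1 subunit induced within minutes of stimulation, went from 823 to 2853 CPM, and ATF3, a stress-induced factor, from 1.35 to 17.9 CPM. The AP-1 partners JUN and JUND pointed down, with ratios of -0.84 and -0.92, under 2-fold. EGR1 went from 17.8 to 56.3 CPM, IER3 from 7.1 to 22.9 CPM and NR4A1 from 15.5 to 32.4 CPM. The related orphan receptors NR4A2 and NR4A3 were lower, NR4A2 (ENSG00000153234, chromosome 2, 156324432 to 156342348) at 341 and 139 CPM and NR4A3 at 10.4 and 4.13 CPM. The family thus did not move as a unit. NR4A2 was higher in the responder pair, at 28.6 and 62.3 CPM.

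Phosphatases that switch off MAP kinases also split, with 3 of 9 higher and 2 lower. DUSP1 stood at 1305 and 4192 CPM, DUSP6 at 25.9 and 124 CPM and DUSP7 at 1.7 and 6.83 CPM, whereas DUSP4 went from 40.2 to 7.88 CPM and DUSP5 was 2.1-fold lower. Of 17 NF-kB genes 0 were higher and 2 lower. These were the inhibitor NFKBIB, at 42.1 and 9.42 CPM, and the subunit REL, at 102 and 44.2 CPM, while NFKBIA and RELA had ratios of -0.66 and -0.02. Among 7 mRNA decay factors ZFP36L2, which destabilises AU-rich transcripts, went from 1318 to 2992 CPM and the ribonuclease ZC3H12A from 176 to 81.7 CPM. All 4 groups had medians near that of all genes: 0.23 for the immediate early genes, 0.06 for the phosphatases, -0.02 for the NF-kB genes, which turned to 0.28 with CD3 and CD8 chains set equal, and 0.28 for the decay factors.

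Targets of the glucocorticoid receptor were higher as a group. Glucocorticoids, made by the adrenal gland or given as drugs, act through this receptor in T cells and monocytes alike. Of 13 listed genes 12 passed, with 8 higher (66.7% against 15.6% of all genes) and 0 lower, and a median of 1.12. The receptor gene itself, NR3C1, stood at 225 CPM before and 188 CPM after therapy. FKBP5, a chaperone partner that restrains the receptor, went from 27.6 to 152 CPM (log2 ratio 2.46, interval 2.39 to 2.53). The kinase SGK1 (ENSG00000118515, chromosome 6, 134169246 to 134318112) went from 15.4 to 105 CPM, and TXNIP, which inhibits thioredoxin and glucose uptake, from 2005 to 7849 CPM. CD163, a scavenger receptor of monocytes, went from 2.85 to 31.7 CPM. PER1 and DDIT4 were under 2-fold, with ratios of 0.37 and 0.53. In the responder pair 5 of 13 were higher and 1 lower, with FKBP5 at 103 and 218 CPM and SGK1 at 8.71 and 9.52 CPM.

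Smaller regulatory families held single called members, except the Kruppel-like factors, of which 3 of 10 passing genes were higher and 2 lower. Those shares are 30% and 20%, against 15.6% and 8.25% of all genes. Of 11 passing clock genes CLOCK alone was called, from 4.98 to 19.5 CPM. Among Kruppel-like factors KLF4, which is abundant in monocytes, went from 0.199 to 49.2 CPM, 247-fold higher, and KLF10 from 114 to 367 CPM, whereas KLF13 and KLF12 were lower, at 69.3 and 29.1 CPM and at 124 and 59.6 CPM. KLF2, which keeps naive and memory cells quiescent, stood at 266 and 242 CPM. Of 12 cAMP pathway genes PDE4B, a phosphodiesterase, alone was called, at 88.6 and 188 CPM. RGS18, a regulator of G protein signalling found in platelets and myeloid cells, went from 3.68 to 37.0 CPM, and the T cell gene RGS1 had a ratio of -0.33.

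Of the 32 interferon-stimulated genes, all of which passed, 8 were higher (25.0% against 15.6%), 3 were lower (9.38% against 8.25%) and 21 were under 2-fold apart, with a median of 0.32. RSAD2 (ENSG00000134321, chromosome 2, 6865806 to 6898239), the antiviral enzyme viperin, went from 1.04 to 27.1 CPM, 26-fold higher (log2 ratio 4.69, interval 4.35 to 5.07). IFI44L went from 8.31 to 70.6 CPM, OAS1, which makes the messenger that activates RNase L, from 13.2 to 107 CPM, and OAS3 from 9.91 to 67.7 CPM. IFIT2, OASL and IFI27 were lower, at 208 and 96.2, 121 and 58.8, and 6.52 and 2.59 CPM. LY6E, at 248 and 125 CPM, lay just short of 2-fold. Among responder libraries 4 of 31 were higher and 4 lower, and OAS1 stood at 60.3 and 54.3 CPM.

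Receptors that guide migration included several genes with few or no counts before therapy. Of 21 chemokine and homing receptors 16 passed, with 7 higher (43.8% against 15.6%) and 3 lower. CCR2, which draws monocytes and memory T cells to inflamed tissue, had no count before and 22.7 CPM after therapy, at least 493-fold higher. CCR1 went from 1.61 to 27.4 CPM. CXCR6, given above, was 8.53-fold higher, and CCR6 was higher too. CXCR5, the receptor for B cell follicles, went from 25.9 to 7.22 CPM, CXCR3, which responds to interferon-induced chemokines, from 50.3 to 21.2 CPM, and S1PR5 was also lower. CCR7, which directs cells to lymph nodes, was flat, at 61.8 and 60.9 CPM. In the responder libraries CCR2 stood at 17.0 and 17.8 CPM and CCR1 at 8.12 and 7.75 CPM. Among 10 passing integrin chains ITGA6 and ITGAX were higher, ITGA6 at 18.5 and 61.2 CPM and ITGAX, the CD11c chain of dendritic cells, at 13.5 and 35.0 CPM.

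Among secreted products of T cells, the cytokines were mostly under 2-fold apart. Of 18 cytokines 9 passed, with 0 higher and 2 lower, CSF1 at 11.8 and 3.1 CPM and IL32 at 678 and 313 CPM. LTA and FLT3LG had ratios of -0.87 and -0.83, under 2-fold, and TGFB1 one of 0.10. Of 6 chemokines 5 passed, with 2 lower (40% against 8.25% of all genes) and 1 higher (20% against 15.6%). CCL5 stood at 2756 and 1357 CPM and CCL3 at 121 and 46.1 CPM, both lower, and XCL1 at 5.4 and 12.3 CPM, higher. Cytokine receptor genes of the common gamma chain family gave 2 higher and 0 lower of 10, the kinase JAK1 at 454 and 915 CPM and IL7R as above. CISH, a feedback inhibitor induced by STAT5, went from 8.99 to 57.7 CPM and SOCS3, induced by STAT3, from 54.1 to 127 CPM, while the kinase PIM3 stood at 181 and 89.6 CPM.

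Proliferation genes were lower. Of 31 listed genes 20 passed, with 12 lower (60.0% against 8.25%) and 0 higher, and a median of -1.31. Members under 5 CPM after therapy could pass only by being higher before it, so this count and median carry that selection. Summed over all 31 genes, passing or not, the level was 601 CPM before and 344 CPM after therapy. In the responder libraries this sum was 706 and 651 CPM. MKI67 (ENSG00000148773, chromosome 10, 128096659 to 128126385), which encodes the Ki-67 protein of dividing cells, stood at 36.5 CPM before and 0.402 CPM after therapy, 90.9-fold lower (log2 ratio -6.49, interval -6.97 to -6.08). TK1, which makes thymidine nucleotides, went from 12 to 1.45 CPM, the mitotic checkpoint kinase BUB1B from 8.54 to 1.05 CPM and E2F1, a factor of S phase entry, from 9.94 to 1.98 CPM. The helicase subunits split, since MCM2 stood at 51.2 and 17.0 CPM and MCM3 at 44.7 and 48.9 CPM. RRM1, CCNA2 and TPX2 also had ratios above 0, of 0.10, 0.09 and 0.52. The other 11 genes were below 5 CPM in both libraries. In the responder pair 23 genes passed, with 10 lower and 1 higher, and MKI67 stood at 18.1 and 8.91 CPM.

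Genes that halt or end the cell cycle split too. CDKN1A, which encodes the p21 inhibitor, went from 20.8 to 136 CPM, whereas GADD45G went from 11.2 to 0.411 CPM, 27.2-fold lower (log2 ratio -4.75, interval -5.23 to -4.34). CDKN2C, GADD45A and CDKN2A were lower as well, with ratios of -1.38, -1.35 and -1.28. Of 17 passing BCL2 family and death receptor genes 3 were higher and 0 lower. They were the survival genes BCL2A1, at 24.8 and 85.6 CPM, and MCL1, at 258 and 699 CPM, and the death-promoting BID, at 34.9 and 95.5 CPM. BBC3, BAD and BAK1 had ratios of -0.98, -0.94 and -0.83.

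Housekeeping machinery showed few calls. None of 63 cytosolic ribosomal protein genes, 29 proteasome subunits or 15 mitochondrially encoded genes was at least 2-fold apart, and their medians were -0.33, -0.26 and -0.24. Of 32 nuclear respiratory chain genes NDUFV1 alone was called, at 276 and 137 CPM. The proteasome, mitochondrial and respiratory medians turned to 0.03, 0.05 and 0.11 with CD3 and CD8 chains set equal, and the ribosomal one to -0.04. The median of all genes was 0.37 under that scaling. Of 20 glycolysis genes 2 were higher, the hexokinase HK2 at 0.874 and 8.75 CPM and PFKFB3, which makes an activator of glycolysis, at 13.7 and 53.7 CPM, while the glucose transporter SLC2A1 had a ratio of -0.90. Among 23 heat shock and unfolded protein response genes HMOX1, the heme oxygenase of macrophages, went from 0.276 to 73.8 CPM, 267-fold higher, HSPA6 from 1.95 to 11.2 CPM and HSPB1 from 17.1 to 5.76 CPM. None of 9 passing DNA methylation genes and none of 10 long noncoding RNAs was called. MALAT1, a nuclear RNA, stood at 42029 and 22606 CPM.

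Taking all genes rather than lists, those with the largest ratio were ones with no count before therapy. HK3 (ENSG00000160883, chromosome 5, 176880869 to 176899332), a hexokinase of myeloid cells, stood at 86.1 CPM after therapy, at least 1872-fold higher. IL13RA1, CD1D, DOK3, PTAFR and P2RY13 followed, with 49.8, 40.6, 38.6, 36.5 and 32.9 CPM. Among genes with at least 200 CPM in the higher library, MS4A6A, TNFAIP2 and SERPINA1 led besides LYZ, at 209, 208 and 454 CPM against 1.52, 2.02 and 5.27 CPM before therapy. On the lower side MKI67 was followed by MDGA1, a membrane-anchored adhesion protein, at 26.8 and 0.384 CPM, GADD45G, PLXNA2 at 11.5 and 0.804 CPM, and PHLPP2 at 13.8 and 0.992 CPM. LAIR2, a secreted decoy of the LAIR1 ligand, stood at 66.5 and 6.34 CPM, 10.5-fold lower. Among abundant genes FGFBP2 was the lowest, followed by the autophagy gene ATG2A, at 228 and 54.2 CPM, the RNA helicase DDX39A, at 694 and 189 CPM, GNLY, and SPON2, at 259 and 77.8 CPM. ZBP1, a sensor of Z-form nucleic acid, stood at 230 and 71.0 CPM.

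The non-responder and responder pairs share no library and were set side by side. In both pairs the library from before therapy carries the PD-1-positive tag. A change shared by the pairs therefore cannot be told apart from a difference tied to that tag. Across 11673 genes that passed in both, Spearman's rho of the changes was 0.49, given as a description since genes are not independent and the scaling was common. Of the genes at least 2-fold higher in the non-responder, 452 were also higher in the responder pair, 22.9% of the 1976 and 43.4% of the 1042. For lower genes the number was 177, which is 17.0% of the 1043 and 30.8% of the 575. Counted over the genes that also passed in the responder pair, the share was 28.5% at 2-fold (452 of 1587), 43.5% at 4-fold (206 of 474) and 70% at 16-fold (105 of 150), beside 8.5% of all genes tested there. The summed level of the 339 genes in the responder libraries was 957 CPM before and 4400 CPM after therapy. Genes higher in both pairs were led by CD86, LYZ, CLEC7A, PLBD1 and CYBB, the oxidase subunit of phagocytes, with CYBB 162-fold higher in the non-responder and at 1.25 and 36.5 CPM in the responder. Genes lower in both were led by SLC1A7, TM4SF19, A2M-AS1, TK1 and PDGFRB, with the glutamate transporter gene SLC1A7 at 26.6 and 2.42 CPM and at 29.1 and 4.26 CPM. Opposite directions were rarer: of the 1587 higher genes that passed in the responder pair, 40 were at least 2-fold lower there, beside 4.69% of all genes. Of the 790 lower genes that passed there, 15 were at least 2-fold higher, beside 8.5% of all genes. No difference between the 2 changes could be tested, with 1 library in each group.

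**Figure D4:**
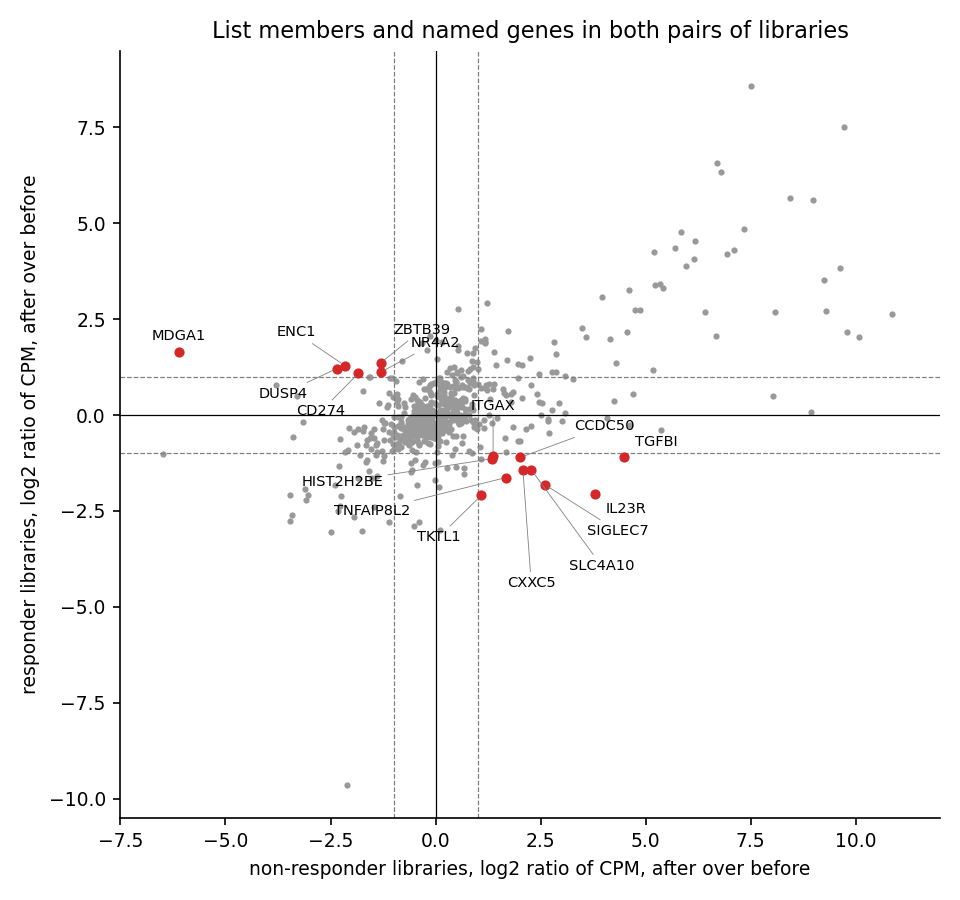
Log2 ratio of CPM, after over before therapy, in the non-responder (x axis) and the responder (y axis) libraries, for 653 list members and named genes with at least 5 CPM in both pairs; genes with no count in a library are drawn at their bound. Dashed lines mark 2-fold, and the 16 named genes that were at least 2-fold apart in opposite directions are in red. MDGA1 lies farthest to the left of these, at -6.10 and 1.64, and TGFBI farthest to the right, at 4.49 and -1.08.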

How the data were processed

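Per the labels' protocols, cDNA was made from 1 ng of RNA of each sort with a SMARTer Ultra Low kit, and paired ends of 101 bases were read. The submitters' processing notes name bcl2fastq 1.8.4 and TopHat2, and hg38 as the build. Neither the counting tool nor its strand setting or annotation was given in the sources used here, and overlapping and antisense genes cannot be told apart. The authors deposited raw counts per Ensembl gene, 64253 genes in 1 file a library, per the file headers. Genes on alternate or unplaced contigs (4146) and 617 sex-informative genes were left out, leaving 59490, while library totals include all counts.

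Counts were scaled with TMM (edgeR 4.0.16, R 4.3.3) over the 4 libraries after its filter on low counts. Log2 ratios used a prior count of 0.5, and intervals are exact conditional binomial 95% intervals (scipy 1.17.1), which cover counting error only, since no molecular identifiers are stated. The ratio and interval code was tested on simulated data. Alternatives were 5 other scalings, among them DESeq2 1.42.0 size factors, filters of 1 and 10 CPM or none, and a prior count of 2.

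Members and lists were chosen with earlier results of these data known. Named genes are the T cell markers and PDCD1, up to 4 members with the highest and 4 with the lowest ratio in each list, the 15 most changed genes per direction from 10 CPM and 100 reads, and from 200 CPM, the 10 per direction most changed alike in both pairs and the 8 per direction most changed oppositely. Receptor segments and genes that differ in copy number between people are not named, and some genes that the rule takes are left out. CCR7, CTSW, LEF1, NLRP3, PPBP, PRF1, RELA, ZAP70 and the list members under 5 CPM fall outside it and were added once their values were known.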

Additional observations from a re-analysis of the deposited data

Results flagged for a closer look

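Each of the following 16 genes was at least 2-fold apart between the libraries in both response classes, with the non-responder and the responder ratio of opposite sign. Every group holds 1 library, so the difference between the classes was not tested, and genes are named here because of this contrast. Over all genes, 40 of 1587 higher and 15 of 790 lower in the non-responder were called the other way in the responder pair. Of all genes tested in the responder pair 4.69% were lower and 8.5% higher.

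Among genes lower after therapy in the non-responder, MDGA1 had a log2 ratio of -6.10 against 1.64 in the responder pair, the MAP kinase phosphatase DUSP4 -2.35 against 1.21, the cytoskeletal gene ENC1 -2.16 against 1.29, the PD-L1 gene CD274 -1.84 against 1.09, ZBTB39 -1.31 against 1.36, and the orphan receptor NR4A2 -1.30 against 1.12. CD274 stood at 15.5 and 4.32 CPM in the non-responder and at 9.1 and 19.3 CPM in the responder libraries.

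Among genes higher in the non-responder were 2 of the type 17 and MAIT cell list: IL23R, with 3.80 against -2.05, and SLC4A10, with 2.28 against -1.42. TGFBI, a matrix protein abundant in monocytes, had 4.49 against -1.08, the inhibitory lectin SIGLEC7 2.61 against -1.82, the integrin chain ITGAX 1.37 against -1.05, and TNFAIP8L2 1.68 against -1.63. CXXC5 had 2.08 against -1.44, CCDC50 2.02 against -1.10, the histone gene HIST2H2BE 1.35 against -1.14 and the transketolase-like TKTL1 1.09 against -2.09. TGFBI stood at 4.39 and 98.5 CPM in the non-responder and at 53.8 and 25.5 CPM in the responder libraries, while the monocyte and neutrophil markers summed to 220 and 9520 CPM and to 162 and 1988 CPM. The epithelial and matrix genes summed to 29.5 and 5.91 CPM in the non-responder and to 352 and 3.42 CPM in the responder libraries. How far either signal enters the TGFBI values was not tested.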

How the results depend on the processing

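With the CD3 and CD8 chains set equal, 3134 genes were higher and 613 lower in the non-responder after therapy. At 1 CPM in either library 3414 were higher, 2528 lower and 832 higher in both pairs; with no filter on level these were 9786, 6781 and 2587. Under the other scalings, the 10 CPM filter and the prior count of 2, these counts stayed within 1.5 times of 1976, 1043 and 452; the count shared with the responder was not run for TMM over the non-responder libraries alone. Lists with a median at least 2-fold from 0 numbered 10, and from 7 at 10 CPM to 12 with the chains set equal. Among the 10, the red cell list and the epithelial and matrix list had 1 passing gene each. The MHC class II list lay at the threshold, with a median of 1.00. Over 50 list medians and 432 named genes, 15 medians and 25 genes changed sign under some setting, and each of these had a ratio under 0.5 in size. The chain scaling raised every ratio by 0.29, and the other scalings moved them by 0.04 or less. No paired analysis was possible because each group holds 1 library and no label ties libraries to a patient. Leaving out a replicate was likewise not possible. At 65500644 and 115446087 counts, counting intervals are narrow for genes above 5 CPM in both libraries and wide for genes with few or no counts in one of them. The single library a side leaves the spread between patients unmeasured.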
